A study of Mus musculus with 18 samples.

Results

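The genes described here belong to the unfolded protein response, the integrated stress response and the cytosolic heat shock response. The set holds 35 genes of the 46333 named genes in the count table. They were listed by name from textbook knowledge of these pathways, with earlier results of these data known. All 35 were found in the table and all 35 passed the filter on low counts that left 19323 genes for testing.

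The RNA came from entire bladders of 8-week-old, wild-type BALB/c females, and the 18 libraries make up 6 groups with 3 mice in each. Mice ate a normal diet or a diet enriched in vitamin A from 1 week before an intraperitoneal injection. The injection was saline or 150 mg/kg of cyclophosphamide, an alkylating drug whose metabolites collect in urine and damage the bladder's lining, the urothelium. The groups were saline on the normal diet, saline on the vitamin A diet, cyclophosphamide at 1 day on each diet, and cyclophosphamide at 3 days on each diet. The enriched diet is labelled as 566081 UI/kg of retinyl acetate, whereas the series description names retinyl palmitate. Saline mice were collected at 1 day only, so a comparison of 3 days with saline also differs in the day of collection. Mice were housed in groups of 3 and no label says which mice shared a cage, so cage and group cannot be told apart. Bladders were used whole, and in such RNA fewer cells of a type and less RNA per cell cannot be told apart.

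Proteins that will be secreted or put into membranes fold in the endoplasmic reticulum (ER), helped by chaperones and by foldases that form disulfide bonds. When unfolded protein accumulates there, the membrane sensors IRE1, ATF6 and PERK start the unfolded protein response, which raises chaperones, exports misfolded protein for degradation and slows translation. PERK, GCN2 and other kinases phosphorylate the translation factor eIF2 and so share a common arm, the integrated stress response, in which the transcription factor ATF4 raises genes of amino acid supply. Umbrella cells of the bladder make large amounts of uroplakin membrane protein, which matures through the ER. Heat shock genes answer to unfolded protein in the cytosol through another factor, HSF1.

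Totals ran from 19554132 to 34598952 counts per library. Levels are given as counts per 1000000 counts of named genes in the library (CPM), and changes as log2 ratios from a single edgeR fit of all 18 libraries, with Benjamini-Hochberg adjusted p-values over all genes tested and a threshold of 0.05. A gene is said to have risen or fallen only past that threshold. Gene positions are those of the count table, whose build is GRCm39 per the submitters' processing notes. The bladder identity of the samples was checked by 15 urothelial marker genes, whose summed level was between 9383 and 17140 CPM in every library, with none at 0. Vitamin A replicate 2 at 3 days stood apart, since it had the highest percentage of counts on short genes, those under 1 kb (14.24%), and correlated least with the other libraries of its group (0.9478), and results that rest on it are given also without it. The library of vitamin A replicate 3 at 1 day correlated almost as little with its own group (0.9488). It also had the highest mitochondrial share (3.822%) and the highest sum of 8 adipocyte markers (1537 CPM).

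Per length of gene, 5 of the 8 ER chaperones and foldases were the 5 most abundant of the 35, and the others, Pdia6, Pdia4 and Hyou1, ranked 8, 11 and 14. By the authors' deposited FPKM values, Calr was first with a median of 234.1 over the 18 libraries, followed by Pdia3 (189.5 FPKM), Hsp90b1 (165.8), Hspa5 (148.5), Canx (102.5), Atf4 (100.8) and Manf (94.2). The lowest were Trib3 (1.35 FPKM), Chac1 (1.11) and Ern2 (0.765). The ER chaperones were therefore measured with 1546 or more counts per library, while Ern2 had 13 to 169, Trib3 19 to 166 and Chac1 20 to 85.

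In mice on the normal diet, 1 day after cyclophosphamide, 12 of the 35 genes rose and 2 fell. All genes tested rose in 7.26% and fell in 4.49% of cases, against 34.29% and 5.714% of the 35. The median log2 change of the 35 was 0.38, and that of all genes was 0.00. On the vitamin A diet 16 rose and 1 fell, which is 45.71% and 2.857% of the set, with a background of 10.2% higher and 9.05% lower and a median of 0.43 against -0.01 for all genes. The comparisons on the 2 diets share no library. The 12 genes that rose on the normal diet were Hspa5, Calr, Pdia3, Pdia4, Pdia6, Dnajb11, Sdf2l1, Manf, Creld2, Psat1, Hspa1b and Dnajb1, and all 12 also rose on the vitamin A diet. They are 100% of the genes of the set risen on the normal diet and 75% of those risen on the vitamin A diet. The same overlap was not counted over all genes, so these shares have no background beside them. The 4 others on the vitamin A diet were Hsp90b1, Canx, Hyou1 and Atf4. On the normal diet all 4 also passed in a fit of the 6 libraries of that comparison alone (adjusted p from 0.0024 to 0.031). In that fit 2303 of all 17279 genes rose. DESeq2 called Hsp90b1 (0.0481), Canx (0.0147) and Atf4 (0.0395) on the normal diet, with 1686 of all 19067 genes risen. In the main fit Herpud1 fell on both diets and Trib3 fell on the normal diet. Without normal diet replicate 3 at 1 day, 7 of the 35 genes rose and 0 fell on the normal diet. Over all genes 875 rose and 387 fell in that fit, against 1403 and 868 with every library. The count of 2 fallen genes was 1 without any 1 of the 3 normal diet saline libraries or without normal diet replicate 1 at 1 day. Over all genes 472, 470 and 426 fell without saline replicates 1, 2 and 3, and 475 without 1 day replicate 1.

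**Figure D1:**
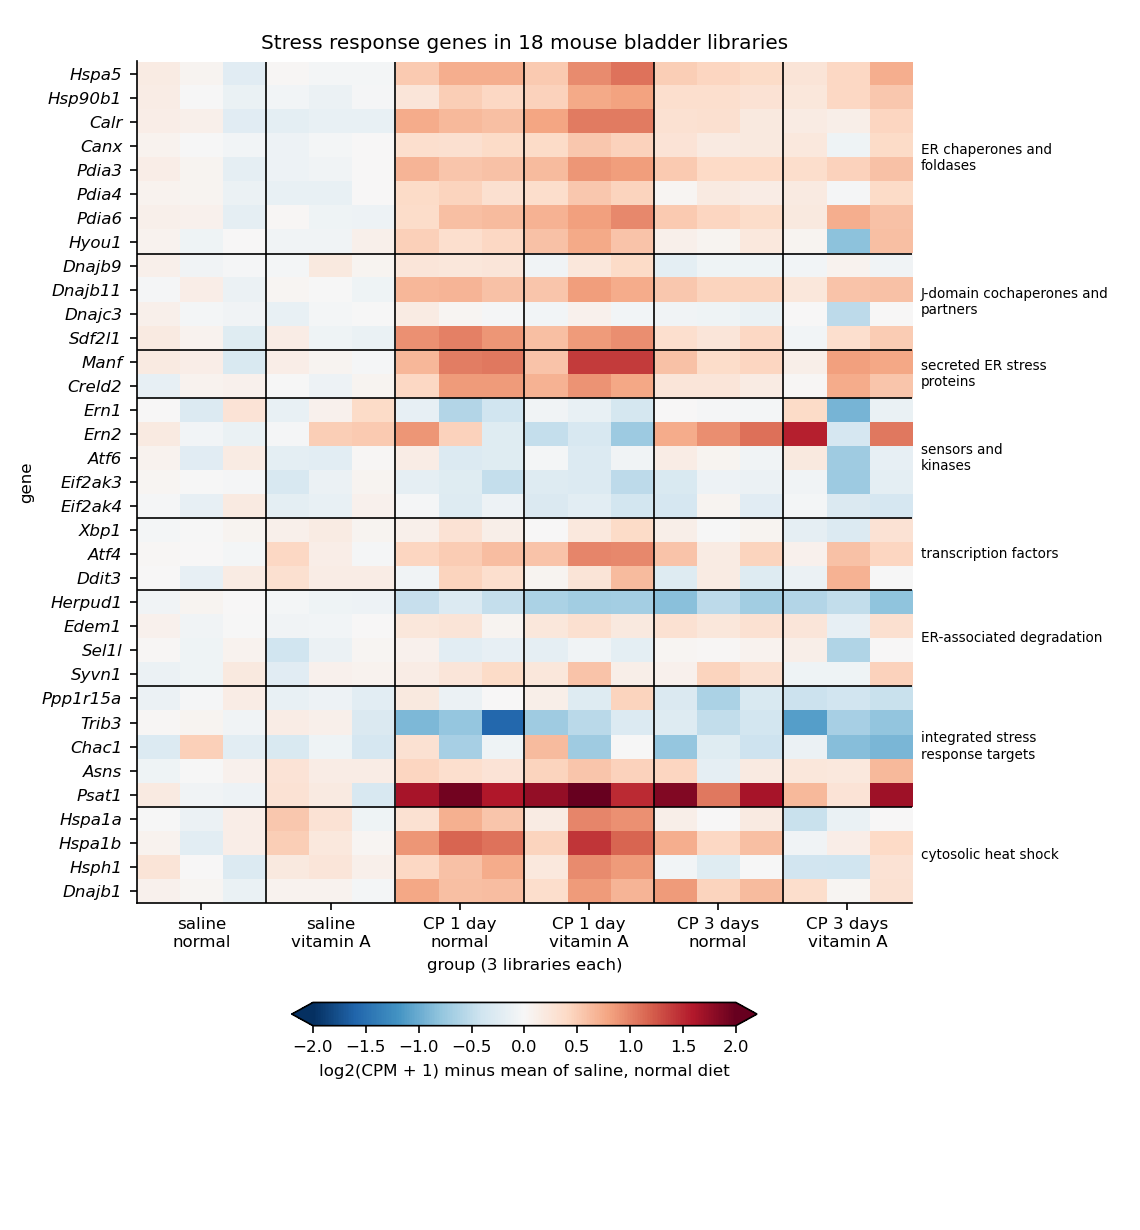
Level of each of the 35 genes (rows, ordered by role) in each of the 18 libraries (columns, 3 per group), as log2(CPM + 1) minus the mean of the 3 saline libraries on the normal diet. Red is higher and blue lower, and CP is cyclophosphamide. Most chaperone rows are red at 1 day on both diets and paler at 3 days, the Psat1 row is the darkest red, and Herpud1 and Trib3 are blue at 1 and 3 days.

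Other cells and states of the bladder moved at the same time. The summed level of 8 fibroblast markers ran from 6445 to 7509 CPM in the 6 saline libraries, from 1564 to 3675 CPM at 1 day and from 6020 to 13410 CPM at 3 days. The sum of 8 markers of dividing cells ran from 76.5 to 89.1 CPM in saline libraries, from 270.7 to 834 CPM at 1 day and from 313 to 629 CPM at 3 days. The sum of 8 smooth muscle markers was 22280 to 32590 CPM in saline libraries and 12470 to 23720 CPM at 1 day. The part of these shifts in the changes of the stress genes was not tested. Plasma cells, which hold much ER, were followed by 8 markers. Of these, Jchain was at 0 to 4.5 CPM, Mzb1 at 0 to 0.861 CPM and Tnfrsf17 at 0 to 0.706 CPM over the 18 libraries, and the list's sum of 576 to 1062 CPM was mostly Sdc1, which epithelia also express. Mucous secretory markers summed to 5.06 to 10.6 CPM, with Muc5ac and Muc5b at 0 in every group.

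Among the 8 ER chaperones and foldases, 5 rose on the normal diet and all 8 on the vitamin A diet, with median log2 changes of 0.47 and 0.77. Hspa5 encodes BiP, the ER member of the HSP70 family that also holds the stress sensors inactive. Calr encodes calreticulin, a calcium-binding chaperone of glycoproteins, and Pdia6 a protein disulfide isomerase. Hspa5 (chromosome 2, 34662102 to 34666541, plus strand) had 332.5, 308.7 and 254.7 CPM in saline mice on the normal diet and 428, 489 and 491 CPM at 1 day. In the vitamin A groups it had 302.4, 290.4 and 290 CPM in saline mice and 427.5, 575 and 630 CPM at 1 day. Every library at 1 day was above every saline library, and vitamin A replicate 1 was the lowest of its group. Hspa5 rose by log2 0.65 (SE 0.16, adjusted p = 0.0143) on the normal diet and by 0.86 (SE 0.16, adjusted p = 0.00109) on the vitamin A diet. The normal diet call ended without saline replicate 3 (adjusted p = 0.0905), 1 day replicate 2 (0.0504) or 1 day replicate 3 (0.0598).

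Calr (chromosome 8, 85568717 to 85573560, minus strand) had 430.2, 422.9 and 335 CPM in saline mice on the normal diet and 657, 620 and 597 CPM at 1 day. With the enriched diet its saline values were 344, 353.5 and 355 CPM and its 1 day values 677.5, 813 and 807 CPM. The groups did not overlap on either diet, and the 3 vitamin A libraries at 1 day were the 3 highest of all 18. Calr rose by 0.65 (SE 0.14, adjusted p = 0.00414) on the normal diet and by 1.10 (SE 0.14, adjusted p = 2.03e-05) on the vitamin A diet. Pdia6 (chromosome 12, 17316590 to 17334786, plus strand) had 137.1, 135.7 and 112.6 CPM in saline mice and 165.6, 194.4 and 198.1 CPM at 1 day on the normal diet. Among vitamin A mice the values were 129.6, 121 and 119 CPM and then 208, 226 and 250.3 CPM. Again no library at 1 day was as low as a saline library. Pdia6 rose by 0.53 (adjusted p = 0.0273) and by 0.86 (adjusted p = 0.000495), and its call on the normal diet held without 1 day replicate 1 and ended without any of the other 5 libraries (adjusted p from 0.0529 to 0.142).

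The other 5 members of the group changed as follows. Pdia3, the foldase of the calreticulin and calnexin cycle, rose by 0.60 on the normal diet and 0.81 on the vitamin A diet. Pdia4 rose by 0.39 and 0.52, and its call on the normal diet ended without any 1 of the 6 libraries (adjusted p from 0.0595 to 0.158). Hsp90b1, the ER member of the HSP90 family also known as GRP94, was at 0.38 on the normal diet (adjusted p = 0.0887) and rose by 0.73 on the vitamin A diet (adjusted p = 0.00121). The membrane-bound lectin chaperone Canx was at 0.34 (adjusted p = 0.0727) and rose by 0.48 on the vitamin A diet (0.0078). Hyou1, a large HSP70 relative that exchanges nucleotide on BiP, was at 0.41 (adjusted p = 0.213) and rose by 0.63 on the vitamin A diet (0.0379). The Hyou1 call ended without vitamin A saline replicate 1, 2 or 3, or 1 day replicate 2 or 3 (adjusted p from 0.068 to 0.127). On the normal diet Hsp90b1, Canx and Hyou1 passed in the fit of that comparison's libraries alone (adjusted p = 0.031, 0.0239 and 0.00917).

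BiP, calreticulin and the other chaperone genes are classic carriers of the ER stress element, which ATF6 and the factor NF-Y bind together. Promoter windows of 300 bases, from 250 before to 50 after the RefSeq start site in GRCm38.p6, were found for 31 of the 35 genes. The ER stress element was searched on both strands as CCAAT, 9 bases of any kind, CCACG. It was present in 8 of the 31 (25.8%), against 0.137% of the 27025 genes with such a window. The 8 were Hspa5, Hsp90b1, Calr, Canx, Pdia6, Dnajc3, Creld2 and Syvn1. This set was chosen from knowledge of the pathway, so the share is a description and not independent evidence. The elements of 4 genes that rose on both diets, and of 2 genes that passed on neither, are printed with 15 bases on each side, 5′ to 3′ on the strand of the gene. Capitals mark the element, including its 9 central bases, and in Calr and Creld2 it reads on the opposite strand.
Hspa5, chr2:34772010-34772058, plus strand: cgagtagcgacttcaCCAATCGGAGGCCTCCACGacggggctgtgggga
Calr, chr8:84847060-84847108, minus strand: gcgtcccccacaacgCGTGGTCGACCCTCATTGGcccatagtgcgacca
Pdia6, chr12:17266476-17266524, plus strand: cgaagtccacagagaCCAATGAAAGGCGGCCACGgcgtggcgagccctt
Creld2, chr15:88819505-88819553, plus strand: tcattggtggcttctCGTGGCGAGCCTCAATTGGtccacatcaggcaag
Dnajc3, chr14:118937812-118937860, plus strand: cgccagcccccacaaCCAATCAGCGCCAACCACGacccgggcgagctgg
Syvn1, chr19:6046517-6046565, plus strand: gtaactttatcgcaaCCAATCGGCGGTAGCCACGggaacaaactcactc

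The outer bases of the element are the same in all 6 by the search, and the 9 central bases differ from gene to gene. Of the 8 genes with a match, 4 rose at 1 day on the normal diet and 6 on the vitamin A diet, with medians of 0.46 and 0.77. Of the 23 genes with a window and no match, 7 rose and 2 fell on the normal diet and 8 rose and 1 fell on the vitamin A diet, with medians of 0.26 and 0.27. Dnajc3 and Syvn1 carry the element and passed on neither diet, while Pdia3, Pdia4, Sdf2l1 and Dnajb11 rose on both diets with no match to it. Dnajb11 does have a match to a second ER stress element, described below with Herpud1. The 8-base core bound by XBP1 and ATF6, TGACGTGG, was in none of the 31 and in 0.714% of all genes.

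**Figure D2:**
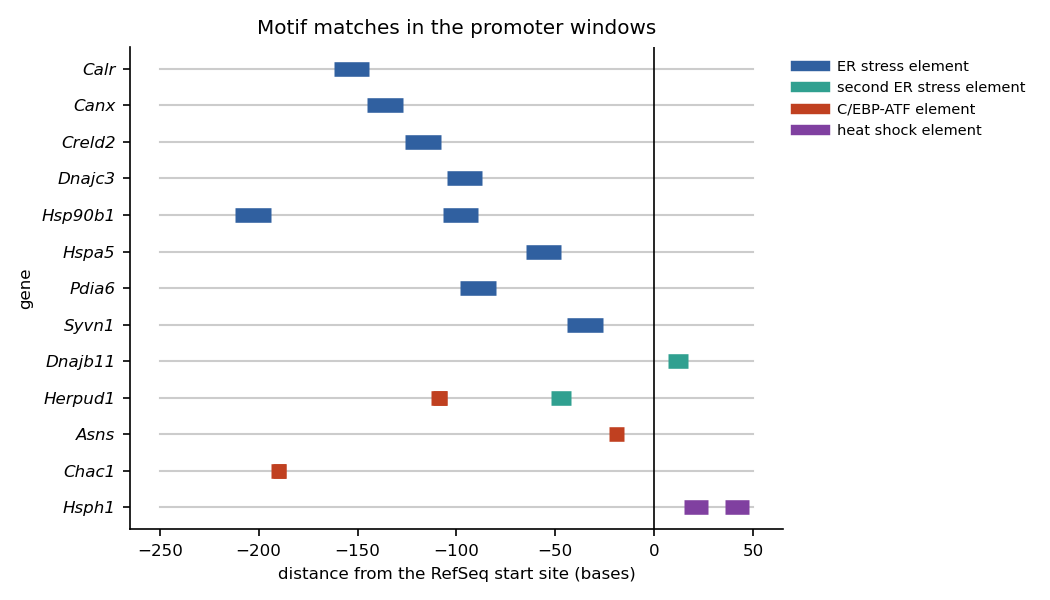
Position of each motif match (coloured block) relative to the RefSeq start site, in bases, in the 13 genes with any match. Each grey line is a window of 300 bases, and the ER stress elements lie before the start site in all 8 genes that have one, with a pair of them in Hsp90b1.

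J-domain proteins bring client proteins to BiP, and the partners Sdf2l1 and Dnajb11 rose at 1 day on both diets while Dnajb9 and Dnajc3 did not pass. Sdf2l1 (chromosome 16, 16948002 to 16950247, minus strand), which encodes a protein that works in a complex with Dnajb11, had 15.2, 14 and 11 CPM in saline mice and 25.9, 27.7 and 25.2 CPM at 1 day on the normal diet. In the vitamin A groups it had 14.8, 12.4 and 12 CPM and then 20.6, 24.8 and 26.3 CPM. No library at 1 day overlapped the saline range, and the normal diet libraries lay close together. Sdf2l1 rose by 0.97 (SE 0.18, 1.96-fold, adjusted p = 0.00182) and by 0.84 (SE 0.18, 1.79-fold, adjusted p = 0.00307). Dnajb11 (chromosome 16, 22676595 to 22698384, plus strand) had 66, 73 and 61.8 CPM in saline mice and 106, 107.6 and 100.3 CPM at 1 day on the normal diet, and 68.3, 66.6 and 62.6 CPM and then 98.7, 119.9 and 112.5 CPM on the vitamin A diet. Its 1 day libraries were all above its saline libraries, and it rose by 0.64 (adjusted p = 0.00349) and by 0.72 (adjusted p = 0.000778). Dnajb9, a textbook target of XBP1, was at 0.24 on the normal diet (adjusted p = 0.257) and 0.10 on the vitamin A diet (0.653). Dnajc3, which also inhibits PERK, was at 0.06 and 0.03.

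Both secreted proteins of the set rose. Manf encodes a neurotrophic factor that is kept in the ER and released under stress, and Creld2 an ER protein that also leaves the cell under stress. Manf (chromosome 9, 106765952 to 106769137, minus strand) had 68.4, 66.2 and 48.7 CPM in saline mice and 96.1, 123.5 and 126.1 CPM at 1 day on the normal diet. With the enriched diet its values were 66.6, 63.1 and 59.5 CPM and then 89.9, 160.2 and 161.3 CPM, so vitamin A replicate 1 was again the lowest of its group. Manf rose by 0.91 (SE 0.23, adjusted p = 0.0134) and by 1.10 (SE 0.23, adjusted p = 0.00216), and the normal diet call ended without saline replicate 3 (adjusted p = 0.0823) or 1 day replicate 3 (0.0577). Creld2 (chromosome 15, 88703849 to 88710884, plus strand) had 23.9, 28.2 and 28.7 CPM and then 36, 49.3 and 49.1 CPM on the normal diet, and 26.8, 24.8 and 27.8 CPM and then 44.3, 50.8 and 46.7 CPM on the vitamin A diet. In both diets the 1 day libraries were clear of the saline libraries. Creld2 rose by 0.73 (adjusted p = 0.0113) and by 0.81 (adjusted p = 0.00328), and on the normal diet its call ended without saline replicate 1 (0.0611), 1 day replicate 2 (0.0514) or 1 day replicate 3 (0.0582).

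**Figure D3:**
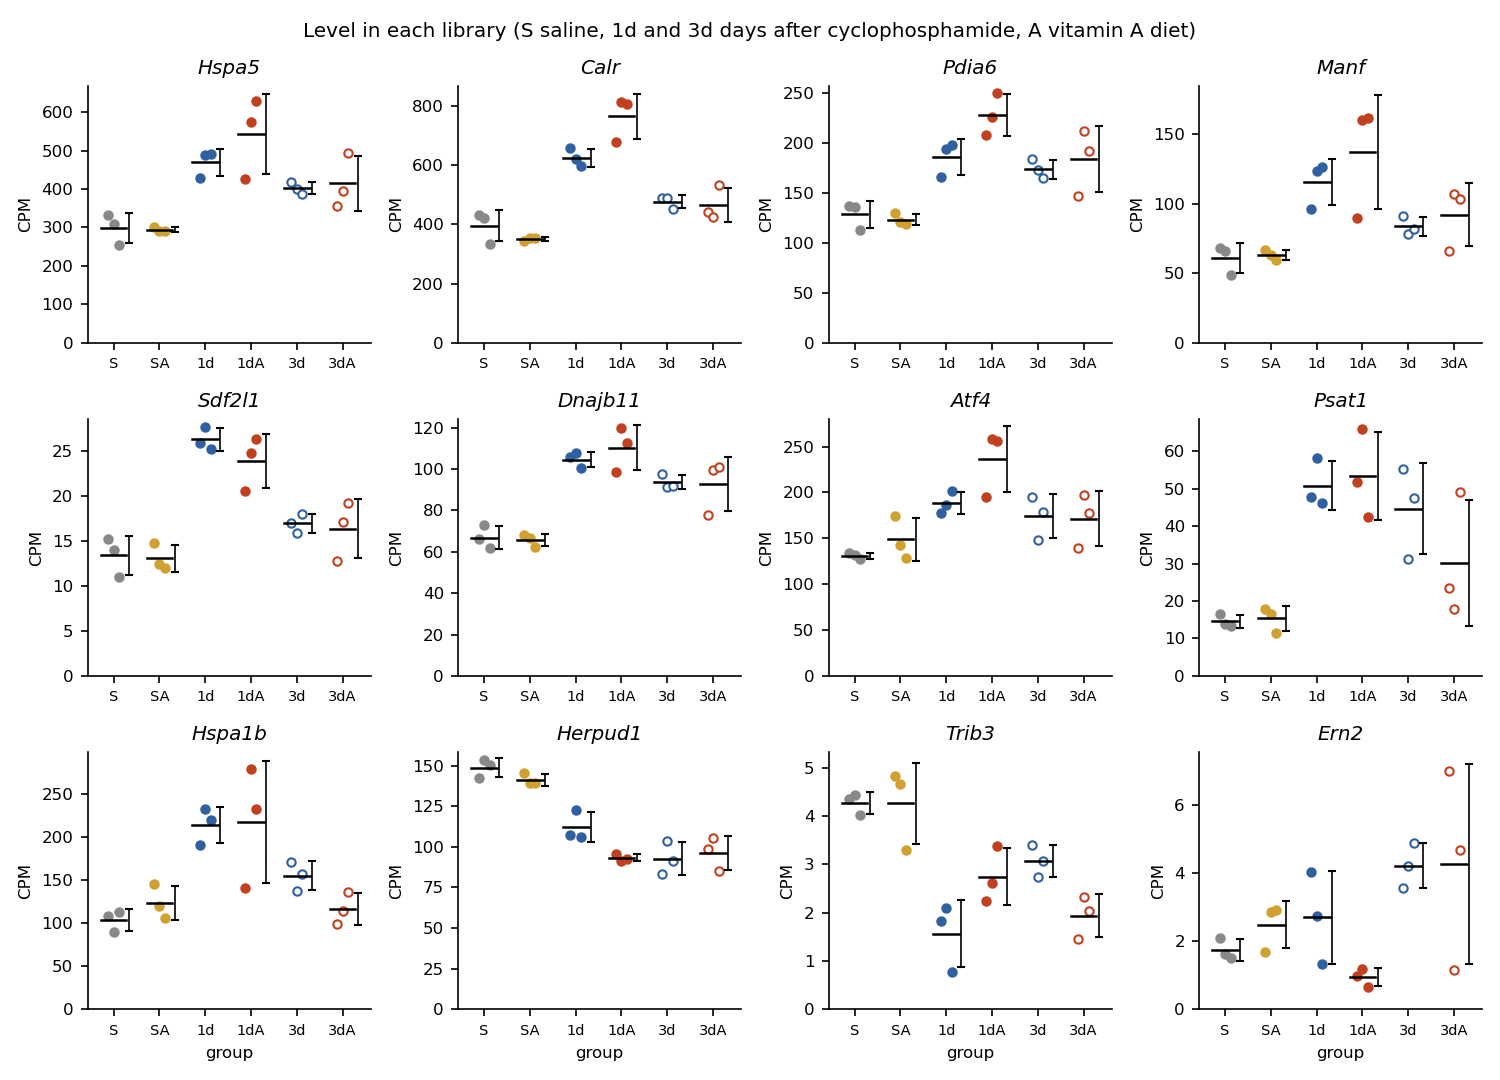
CPM of 12 genes in each library (points), by group, with the mean (line) and SD (bar) over 3 mice; each panel has its own axis from 0. Grey and yellow are saline on the normal and vitamin A diet, filled blue and red are 1 day after cyclophosphamide and open blue and red are 3 days. The 1 day points of Hspa5, Calr, Pdia6, Manf, Sdf2l1, Dnajb11 and Psat1 lie above all saline points on both diets, and those of Herpud1 below.

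None of the 5 sensor and kinase genes passed the threshold at 1 day on either diet. Ern1, which encodes IRE1, was at -0.40 on the normal diet (adjusted p = 0.271) and -0.34 on the vitamin A diet (0.317). Atf6 was at -0.12 and -0.03, Eif2ak3 (PERK) at -0.30 and -0.26, and Eif2ak4 (GCN2) at -0.14 and -0.25. Ern2, the IRE1 relative of mucous epithelia, was at 0.62 on the normal diet (adjusted p = 0.464) and -1.42 on the vitamin A diet (0.0607). It is described further because its values were seen to differ. Ern2 had 2.1, 1.62 and 1.49 CPM in saline mice on the normal diet and 4.01, 2.74 and 1.31 CPM at 1 day, so these groups overlapped. Among vitamin A mice it had 1.69, 2.84 and 2.92 CPM in saline mice and 0.97, 1.18 and 0.647 CPM at 1 day, with no overlap. DESeq2 called it fallen on that diet (-1.42, adjusted p = 0.036).

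Of the 3 transcription factor genes, Atf4 rose on the vitamin A diet and Xbp1 and Ddit3 passed on neither. Gene counts show neither the splicing of Xbp1 RNA by IRE1 nor the translation of Atf4, the steps by which these factors are known to be switched on. Atf4 (chromosome 15, 80139385 to 80141746, plus strand) had 134, 131.8 and 127.7 CPM in saline mice and 177.5, 186.3 and 201.5 CPM at 1 day on the normal diet, with no overlap. In the vitamin A groups it had 174.9, 143.2 and 128.7 CPM and then 194.9, 258.5 and 256.1 CPM, also with no overlap. The change was 0.52 (SE 0.17, adjusted p = 0.0572) on the normal diet and 0.64 (SE 0.17, adjusted p = 0.0139) on the vitamin A diet. The second call ended without vitamin A saline replicate 2 (adjusted p = 0.06) or 3 (0.095) or 1 day replicate 2 (0.0647) or 3 (0.0545), and DESeq2 called the gene on the normal diet too (adjusted p = 0.0395). Xbp1 was at 0.17 and 0.07. Ddit3, which encodes the pro-apoptotic factor CHOP, was at 0.26 (adjusted p = 0.531) and 0.10 (0.813).

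ER-associated degradation pulls misfolded protein back into the cytosol for the proteasome. In this group of 4, Herpud1 fell and Edem1, Sel1l and Syvn1 passed on neither diet. Herpud1 encodes a small ER membrane protein that organises the degradation complex, and it is itself a well-known target of the unfolded protein response. Herpud1 (chromosome 8, 95113057 to 95121999, plus strand) had 142.4, 153.8 and 150.3 CPM in saline mice and 107.4, 122.9 and 106.4 CPM at 1 day on the normal diet. With the enriched diet it had 145.5, 139.5 and 139.2 CPM and then 95.8, 91.6 and 92.8 CPM. The groups did not overlap on either diet. Herpud1 fell by 0.41 on the log2 scale (SE 0.12, adjusted p = 0.027) and by 0.63 (SE 0.12, adjusted p = 0.000772). On the normal diet the call held without 1 day replicate 2 and ended without any of the other 5 libraries (adjusted p from 0.0575 to 0.115), and it also ended with no filter on low counts (0.0813). Edem1, a mannose-trimming factor, was at 0.18 and 0.26, Sel1l at -0.09 and -0.03, and the ubiquitin ligase Syvn1 at 0.26 and 0.32.

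The promoter of Herpud1 is shown because the gene moved against the chaperones while holding recognised stress motifs. It carries the second ER stress element, searched as ATTGG, 1 base, CCACG, which was in 2 of the 31 genes (6.45%) and 0.0444% of all genes. The other gene with this element was Dnajb11, which rose on both diets and has it after the start site. The Herpud1 promoter also carries the 8-base core of the C/EBP-ATF element bound by ATF4, TTGCATCA. This core overlaps the longer form of the same motif on the other strand. Capitals mark both.
Herpud1, chr8:94386301-94386402, plus strand: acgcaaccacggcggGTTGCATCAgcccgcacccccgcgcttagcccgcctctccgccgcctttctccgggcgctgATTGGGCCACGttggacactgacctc

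Genes downstream of ATF4 moved apart from each other. Psat1, an enzyme of serine synthesis, rose on both diets with the largest change of the 35 genes. Psat1 (chromosome 19, 15882487 to 15902423, minus strand) had 16.6, 13.8 and 13.4 CPM in saline mice and 47.9, 58.3 and 46.1 CPM at 1 day on the normal diet. Among vitamin A mice it had 17.9, 16.6 and 11.5 CPM and then 51.7, 65.8 and 42.5 CPM. On either diet every 1 day library was well above the highest saline library. Psat1 rose by 1.80 (SE 0.30, 3.48-fold, adjusted p = 0.000668) and by 1.76 (SE 0.30, 3.4-fold, adjusted p = 0.000398). Trib3, a pseudokinase that dampens ATF4 and CHOP signalling, moved the other way. Trib3 (chromosome 2, 152179345 to 152185980, minus strand) had 4.35, 4.45 and 4.03 CPM in saline mice and 1.82, 2.1 and 0.778 CPM at 1 day on the normal diet, with no overlap. In the vitamin A groups it had 4.82, 4.67 and 3.29 CPM and then 2.23, 2.62 and 3.38 CPM, which overlap. Trib3 fell by 1.45 on the log2 scale on the normal diet (SE 0.36, adjusted p = 0.0121) and was at -0.67 on the vitamin A diet (adjusted p = 0.197). Normal diet replicate 3 at 1 day held the lowest value and 19 counts, and without it the change was -1.13 (adjusted p = 0.068).

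The remaining 3 targets did not pass at 1 day. Ppp1r15a (GADD34), which restores translation by directing the dephosphorylation of eIF2, was at 0.03 on the normal diet and 0.27 on the vitamin A diet. Asparagine synthetase, Asns, was at 0.35 (adjusted p = 0.156) and 0.27 (0.24). Chac1, which degrades glutathione, was at -0.20 (SE 0.52) and 0.41 (SE 0.52), a precision limited by its 20 to 85 counts per library. The C/EBP-ATF element, searched as TGATG, 1 base, AAT or AAC, or as the core TTGCATCA, was in 3 of the 31 genes (9.68%) and in 2.56% of all genes. The 3 were Herpud1, Asns and Chac1, none of which rose. The elements of the last pair are printed in capitals with up to 15 bases on each side. The Asns stretch is cut at the start site. Psat1 and Trib3 had no match in these windows.
Asns, chr6:7693210-7693247, minus strand: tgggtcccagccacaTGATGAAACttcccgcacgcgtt
Chac1, chr2:119351033-119351071, plus strand: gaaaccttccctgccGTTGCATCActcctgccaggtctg

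Cytosolic heat shock genes form the last group, in which Hspa1b and Dnajb1 rose on both diets. Hspa1a and Hspa1b are neighbouring copies of the inducible HSP70 gene. They share 47.1% and 49.9% of the 100-base stretches of their longest transcripts, so how reads were divided between them is uncertain. Hspa1b (chromosome 17, 35175405 to 35178214, minus strand) had 108.8, 89.4 and 113.3 CPM in saline mice and 190.6, 232.2 and 219.6 CPM at 1 day on the normal diet. With the enriched diet it had 145, 119.7 and 106.4 CPM and then 140.6, 279.8 and 232.8 CPM. The groups were apart on the normal diet and overlapped on the vitamin A diet, where 1 day replicate 1 lay inside the saline range. Hspa1b rose by 1.04 (SE 0.21, adjusted p = 0.00329) and by 0.79 (SE 0.21, adjusted p = 0.0126). The second call ended without saline replicate 2 (adjusted p = 0.0518), saline replicate 3 (0.0764) or 1 day replicate 2 (0.0936). Hspa1a was at 0.54 (adjusted p = 0.105) and 0.43 (0.164), and with both copies summed into a single gene the change was 0.91 (adjusted p = 0.00843) and 0.69 (0.0267).

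Dnajb1, the J-domain partner of cytosolic HSP70 (chromosome 8, 84334804 to 84339282, plus strand), had 59.4, 57.4 and 50.7 CPM in saline mice and 96, 84.9 and 86.1 CPM at 1 day on the normal diet. Among vitamin A mice it had 58.8, 58.4 and 54.2 CPM and then 71.6, 101.5 and 89.6 CPM. Its 1 day libraries were above its saline libraries on both diets, and it rose by 0.67 (adjusted p = 0.00486) and by 0.59 (adjusted p = 0.00677). The second call ended without 1 day replicate 2 (adjusted p = 0.0518). Hsph1, an HSP70 nucleotide exchange factor, was at 0.58 (adjusted p = 0.0794) and 0.51 (0.0945), and both Hsph1 and Hspa1a passed on the vitamin A diet without 1 day replicate 1 (0.014 and 0.018). The heat shock element was searched as GAA, 2 bases, TTC, 2 bases, GAA, or as TTC, 2 bases, GAA, 2 bases, TTC. Looser forms were not searched. Hsph1 was the 1 gene of the 31 (3.23%) with a match in its window, after the start site, against 0.662% of all genes.

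**Figure D4:**
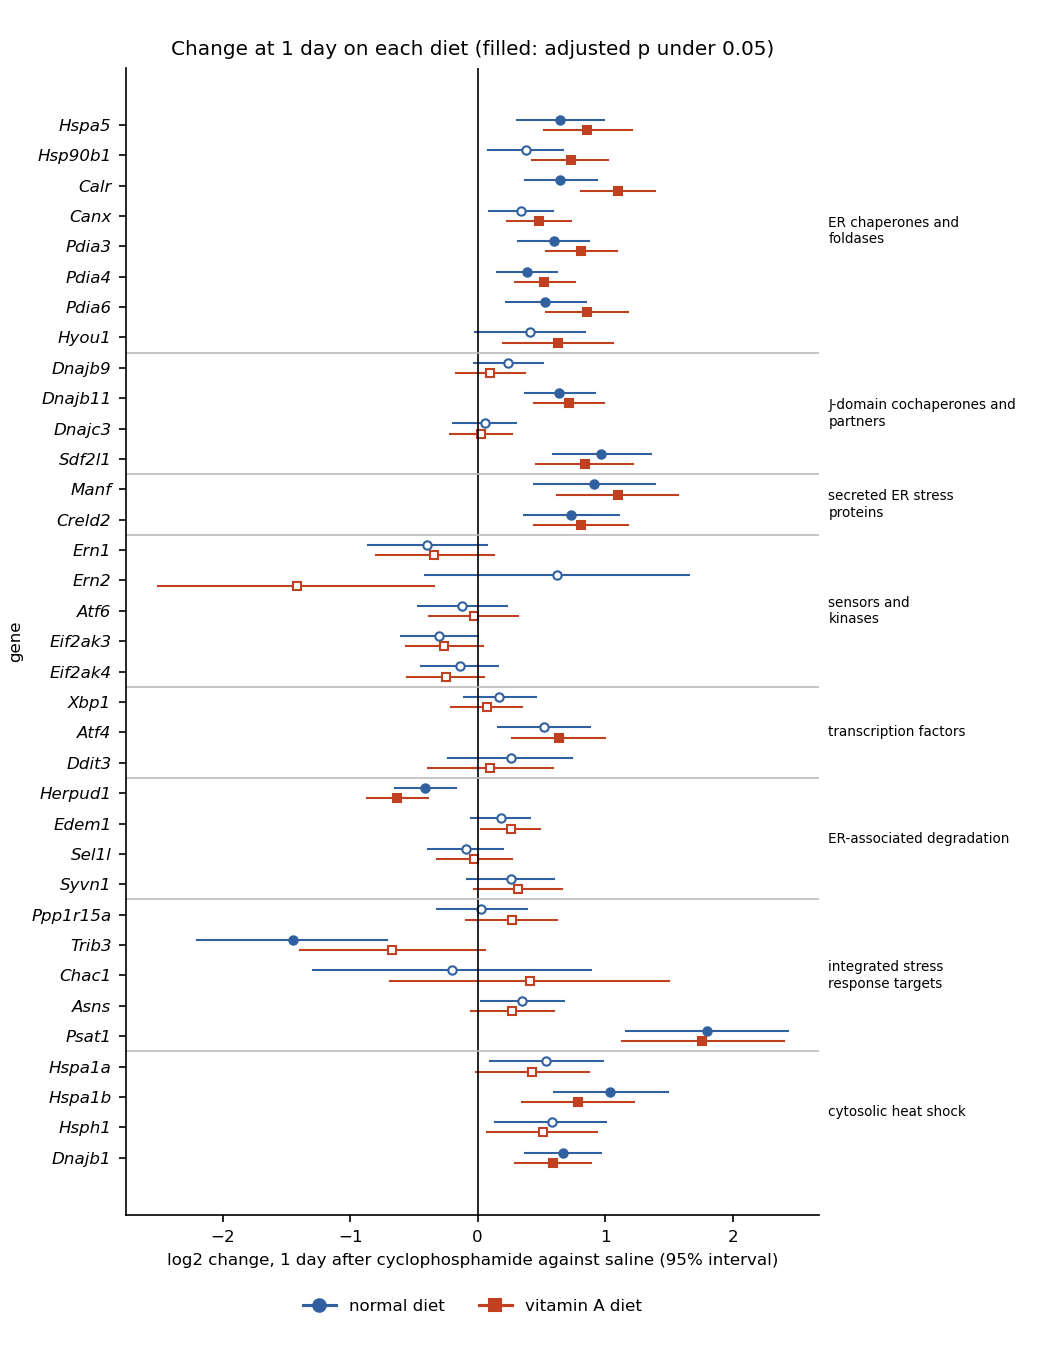
log2 change at 1 day after cyclophosphamide against saline (x axis) for each of the 35 genes, on the normal diet (blue circles) and the vitamin A diet (red squares), with 95% intervals. Filled symbols passed the adjusted threshold of 0.05. The 8 chaperones lie to the right of 0 on both diets, and sensors and kinases other than Ern2 lie to its left.

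Wider lists of pathway genes, chosen with earlier results of these data known, were counted in the same fit, in which 7.26% of all genes rose and 4.49% fell on the normal diet and 10.2% rose and 9.05% fell on the vitamin A diet. Of 30 further genes of ER folding and export, 1 rose and 1 fell on the normal diet and 4 rose and 1 fell on the vitamin A diet, with medians of 0.02 and 0.04. The shares risen were 3.33% and 13.3%, below the background on the normal diet and near it on the vitamin A diet. P4hb, a disulfide isomerase and collagen hydroxylase subunit, rose by 0.54 and the collagen-folding Fkbp14 fell by 1.15 on the normal diet. Of 13 further degradation genes none passed on the normal diet and 2 fell on the vitamin A diet. Among 17 further sensors and processing genes, Eif2s1, which encodes the phosphorylated subunit of eIF2, rose by 0.47 and the collagen regulator Creb3l1 fell by 0.76 on the normal diet. Fkbp14 and Creb3l1 moved with the fibroblast markers given above, and the part of those cells in their change was not tested.

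Of 30 further ATF4 and CHOP targets tested, 10 rose and 4 fell on the normal diet and 9 rose and 2 fell on the vitamin A diet, with medians of 0.36 and 0.33. The shares risen were 33.3% and 30% against 7.26% and 10.2% of all genes, and the shares fallen 13.3% and 6.67% against 4.49% and 9.05%. On the normal diet the largest rises were in Gdf15, a stress cytokine (4.64, adjusted p = 0.000253), Mthfd2, a mitochondrial folate enzyme (2.10), and Slc7a11, the cystine transporter (1.87). The largest falls were in the secreted glycoprotein Stc2 (-4.84, adjusted p = 2.25e-05), the proline enzyme Pycr1 (-1.58) and Vldlr (-1.25). Stc2 had 18 to 25.9 CPM in the 6 saline libraries and 0.411 to 1.84 CPM in the 6 libraries at 1 day. Gdf15 had 0 to 0.842 CPM in saline libraries and 4.44 to 10.2 CPM at 1 day. Of 12 aminoacyl-tRNA synthetases, which charge tRNAs and are raised by ATF4, 4 (33.3%) rose and none fell on each diet, among them Cars (0.69), Tars (0.49), Aars (0.48) and Vars (0.48) on the normal diet. Of 21 further heat shock genes 5 (23.8%) rose on the normal diet and 9 (42.9%) on the vitamin A diet with none fallen, led on the normal diet by Hspa8 (0.84), Dnaja1 (0.76) and Hspd1 (0.56), genes with many processed copies whose reads are uncertain.

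Most of the 35 genes had lower levels at 3 days than at 1 day, and few passed the threshold. On the normal diet 28 of the 35 were lower at 3 days than at 1 day, with a median of -0.22. Of all genes 48.16% were higher at 3 days, with a median of -0.01. None of the 35 passed in edgeR, with a background of 1.22% higher and 0.217% lower. At an unadjusted p under 0.05 there were 12 genes, 34.3% of the set against 11.3% of all genes. Among the 12, Trib3 was higher at 3 days (0.92) and the others were lower. DESeq2 called 3 fallen (Calr, Sdf2l1 and Hsph1) with a background of 0.891%, and a fit of the 6 libraries of this comparison alone called 8 fallen with a background of 1.22%. On the vitamin A diet 29 of 35 were lower at 3 days, and the median was -0.27. Of all genes 51.3% were higher at 3 days on that diet, with a median of 0.01. Of the 35, 4 fell and 1 rose, with a background of 1.69% lower and 2.55% higher. The 4 were Calr (-0.70, adjusted p = 0.00723), Hspa1a (-0.91, 0.0213), Hspa1b (-0.89, 0.0229) and Hsph1 (-0.83, 0.0305). Calr had 440.5, 425.9 and 532 CPM at 3 days on that diet, all below its 1 day values. Hspa1b had 98.7, 113.8 and 136.5 CPM and Hspa1a 32.4, 40.6 and 44.8 CPM at 3 days, also below their 1 day values. The count of 4 was 2 without 1 day replicate 2, and 1 without 1 day replicate 3 or without 3 day replicate 1. Without the library that stands apart it was 3, Hsph1 being lost (adjusted p = 0.0838). Over all genes 327 fell with every library, and 144, 132, 211 and 273 without these libraries in turn. With only the 6 libraries of the comparison none of these calls remained, and 10 of all 17253 genes tested fell.

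Ern2 was the gene that rose between 1 and 3 days on the vitamin A diet, from the 1 day values above to 6.98, 1.16 and 4.67 CPM (log2 2.17, SE 0.52, adjusted p = 0.0237). The library that stands apart, vitamin A replicate 2, held the lowest of the 3 values, and the groups overlapped. The call ended without 1 day replicate 2 (adjusted p = 0.0535), 1 day replicate 3 (0.105) or 3 day replicate 1 (0.0924). On the normal diet Ern2 had 3.56, 4.2 and 4.86 CPM at 3 days and the change from 1 day was 0.59 (adjusted p = 0.736).

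At 3 days, 3 of the 35 genes were higher than in saline mice past the threshold and 1 was lower on each diet. The background was 6.74% higher and 3.30% lower on the normal diet and 4.32% higher and 1.67% lower on the vitamin A diet, so the share of 8.571% risen is near the background on the normal diet. Herpud1 fell on both diets, by 0.74 (SE 0.12, adjusted p = 0.000307) and 0.56 (SE 0.12, adjusted p = 0.00532). It had 83.2, 103.4 and 91.3 CPM at 3 days on the normal diet and 99, 105.6 and 85.1 CPM on the vitamin A diet, all below its saline libraries. In the vitamin A groups the Herpud1 call held without any 1 library and ended in the fit of its own 6 libraries (adjusted p = 0.127).

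Psat1 stayed high at 3 days on the normal diet, with 55.3, 31.3 and 47.6 CPM (log2 1.56, SE 0.30, adjusted p = 0.00231). With the enriched diet it had 23.4, 17.8 and 49.2 CPM, a wide spread in which replicate 2 lay at the top of the saline range, and the change was 0.95 (adjusted p = 0.0687). On that diet Psat1 passed without 3 day replicate 2, the library that stands apart (1.19, adjusted p = 0.0242), without 3 day replicate 1 (1.12, 0.0396) and in DESeq2 (0.94, 0.0262). Dnajb1 rose by 0.60 on the normal diet (adjusted p = 0.0112), with 101, 75.8 and 87.4 CPM, and that call ended without saline replicate 3 (0.0686) or 3 day replicate 1 (0.082). Dnajb11 rose on both diets, by 0.43 (adjusted p = 0.0456) and 0.49 (0.031), and Pdia3 and Pdia6 rose on the vitamin A diet by 0.51 (0.0233) and 0.58 (0.0265). These calls ended when single libraries were left out. Without vitamin A saline replicate 1, 2 or 3, or 3 day replicate 3, no gene rose at 3 days on the vitamin A diet, and without 3 day replicate 1 the count was 8. Without the library that stands apart, 2 rose and 2 fell. Without normal diet saline replicate 3 or 3 day replicate 1, 1 gene rose on the normal diet.

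The estimated changes of the 8 chaperones against saline were above 0 at 3 days on both diets, with medians of 0.24 and 0.43. At 1 day the medians were 0.47 and 0.77, and the same saline libraries enter both comparisons. At 3 days none of the 8 passed on the normal diet, and only Pdia3 and Pdia6 on the vitamin A diet. Some estimates were close to 0, with Hyou1 at 0.07 and 0.04 (SE 0.20) and Pdia4 at 0.07 on the normal diet. Of all genes 49.97% and 51.16% were above 0. Hyou1 had 114.8, 61.6 and 166.6 CPM at 3 days on the vitamin A diet. The library that stands apart also gave the lowest CPM of the 18 for 9 of the 35 genes, which were Hyou1, Dnajc3, Ern1, Atf6, Eif2ak3, Xbp1, Edem1, Sel1l and Hsph1.

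**Figure D5:**
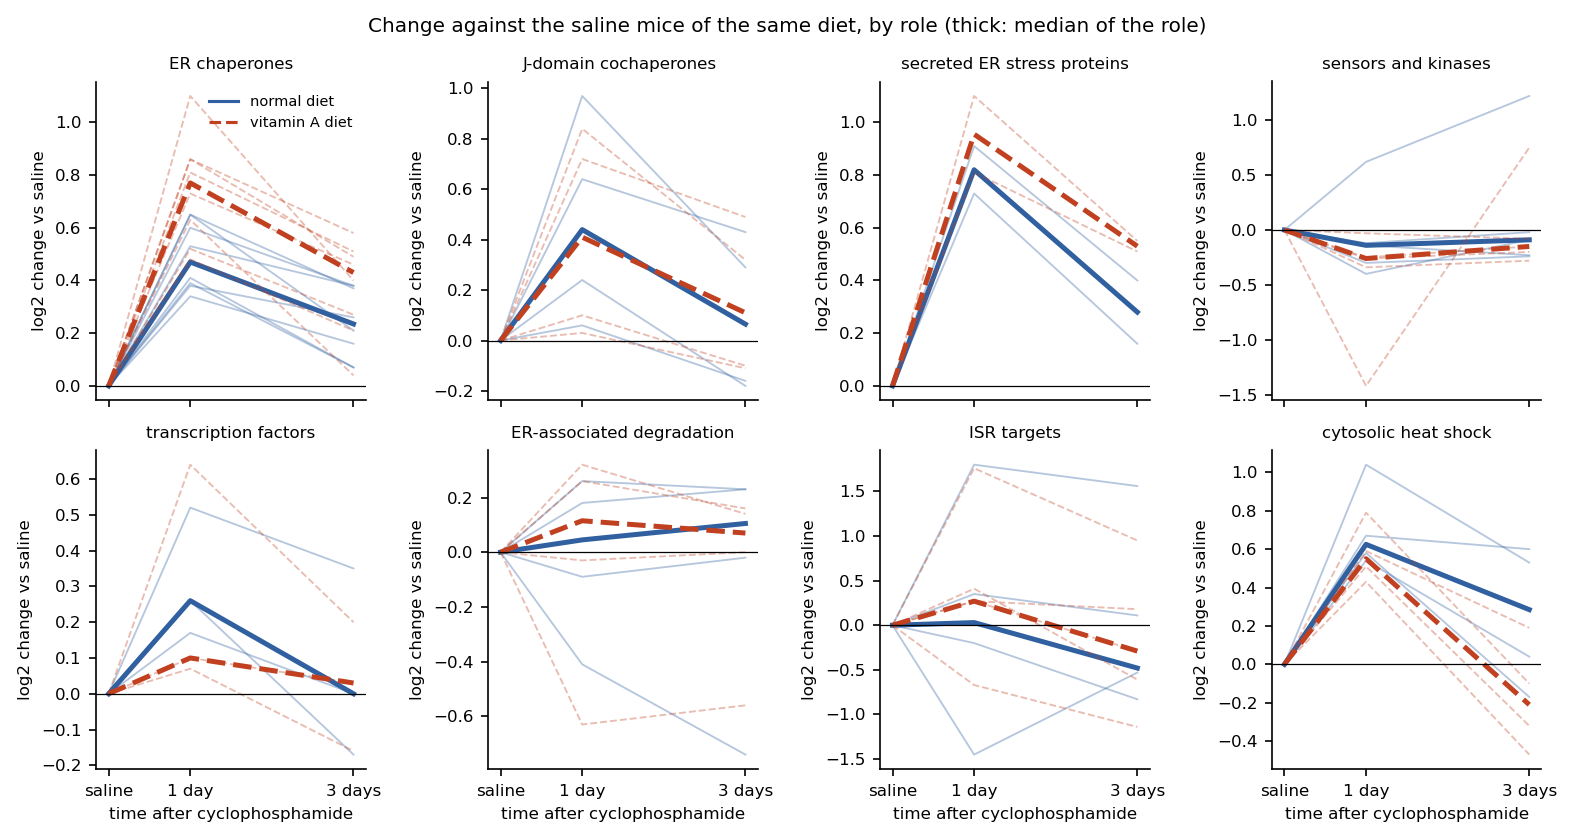
log2 change against saline mice of the same diet (y axis, a separate scale per panel) at 1 and 3 days after cyclophosphamide (x axis) for the 8 role groups; thin lines are genes and thick lines the median of the role. Saline mice were collected at 1 day and stand at 0 on both axes by definition. The medians of chaperones, cochaperones and secreted proteins peak at 1 day on both diets, and the median of cytosolic heat shock genes ends below 0 at 3 days on the vitamin A diet, with 1 of the 4 genes above 0.

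The diet itself changed none of the 35 genes past the threshold. In saline mice 0 passed, with a background of 0.0104%, at 1 day 0 passed, with a background of 0.466%, and at 3 days 0 passed, with a background of 0.00518%. DESeq2 also called 0 of the 35 in each. Over all genes DESeq2 called 10 higher and 4 lower of 20184 in saline mice and 268 and 219 of 17950 at 1 day. At 3 days it called 6 and 3 of 29676. In edgeR, at an unadjusted p under 0.05, there were 0 of the 35 in saline mice against 3.78% of all genes. There were 3 at 1 day (8.57% against 11.1%) and 1 at 3 days (2.86% against 3.76%), so none of these shares was above the background. The 3 at 1 day were Ern2 (-1.53 for vitamin A over normal, adjusted p = 0.219), Trib3 (0.81, 0.403) and Herpud1 (-0.28, 0.354). The authors' deposited table of the same comparison lists 3 of the 35 genes, Ern2 (-1.54, adjusted p = 0.253), Calr (0.29, 0.442) and Atf4 (0.32, 0.457). Their table for saline mice lists 1, Hspa1b (0.27, adjusted p = 0.502), and their table for 3 days lists none.

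A larger number of calls on the vitamin A diet at 1 day does not by itself show a larger effect, and the interaction of diet with cyclophosphamide tests this. No gene of the 35 passed it in edgeR, with a background of 0% over all genes. DESeq2 also called none of the 35, and over all 20184 genes tested it called 62 higher and 50 lower. In edgeR an unadjusted p under 0.05 was found for 2 of the 35, Calr and Ern2. Their share of 5.71% is below the 7.79% of all genes. For Calr the difference between the diets' log2 changes was 0.44 (95% interval 0.04 to 0.85, unadjusted p = 0.0333, adjusted p = 0.592). For Ern2 it was -2.05 (-3.55 to -0.55, unadjusted p = 0.0101, adjusted p = 0.431). For Hspa5 it was 0.21 (-0.27 to 0.69), for Hsp90b1 0.35 (-0.07 to 0.76) and for Atf4 0.12 (-0.40 to 0.63). All 8 chaperones had a positive difference, with a median of 0.22, and none of the 8 passed. Of all genes 48.28% had a positive difference, with a median of -0.02. The interval lay within a log2 difference of 1 either way for 32 of the 35, the others being Ern2, Trib3 and Chac1. The interaction of diet with the days since cyclophosphamide also passed in none of the 35 in edgeR, with a background of 0%. At an unadjusted p under 0.05 there were 3, a share of 8.57% against 8.96% of all genes, namely Trib3 (-1.40, adjusted p = 0.398), Herpud1 (0.41, 0.475) and Ern2 (1.58, 0.521).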

How the data were processed

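Whole-bladder RNA libraries (NEBNext Ultra kit, per the labels' protocols) were grouped by their titles. The submitters' processing notes name the build GRCm39 and the tools featureCounts 1.5.0-p3, HISAT2 2.0.5 and DESeq2 1.20.0. Strand setting and handling of multi-mapping reads: not given in the sources used here. One deposited table gives raw counts for each gene, another the authors' FPKM. The authors' deposited diet tables hold log2 ratios (printed here inverted, as vitamin A against normal) with p-values and adjusted p-values, and list features at an unadjusted p of at most 0.05.

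Of 60750 features, 14417 unnamed ones (0.474% to 0.8097% of the counts of a library) were left out. The main test was edgeR's quasi-likelihood F test in its robust form (edgeR 4.0.16, R 4.3.3), with TMM scaling, edgeR's filter on low counts, 6 group means over all 18 libraries, 12 residual degrees of freedom and 11 contrasts. P-values are 2-sided, adjusted by Benjamini-Hochberg per contrast. Alternatives were DESeq2 1.42.0, its size factors, no filter, own libraries, a replicate block and leaving out each library. The labels call the replicates biological and the mice of a group are the replicates, with no pairing stated. Exact permutation of 3 against 3 cannot go below 0.1, so single genes rest on the edgeR model.

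The 35 genes and all lists were chosen with earlier results of these data known. CPM are named for every library for up to 3 genes per role with the largest change among those past the threshold at 1 day on either diet, and from each wider list up to 3 genes each way on the normal diet. Of 13 tRNA synthetase symbols 12 matched, through RefSeq synonyms. RefSeq promoter windows (GRCm38.p6) matched 31 of 35 genes; coordinates of the 2 builds were not mixed. Shared stretches of Hspa1a and Hspa1b come from GENCODE transcripts of GRCm38.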

Additional observations from a re-analysis of the deposited data

How the results depend on the processing

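Of 44 calls of the 35 genes over the 6 comparisons with cyclophosphamide, 22 held under every alternative and 0 reversed. Summing Hspa1a and Hspa1b was chosen after seeing the data. With FPKM in place of CPM, the ratios of group means at 1 day moved by less than the spread between replicates in 70 of 70 cases. Diet comparisons and interactions gave 0 of the 35 genes under every alternative. In the fit of only the libraries of the comparison, the 12 risen at 1 day on the normal diet became 19. Over all genes that fit called 2303 of 17279 risen, against 1403 of 19323 in the main fit. In that fit the 0 fallen from 1 to 3 days on the normal diet became 8. The 3 risen and 1 fallen at 3 days on the normal diet became 9 and 2. On the vitamin A diet the 1 risen and 4 fallen from 1 to 3 days and the 3 risen and 1 fallen at 3 days all became 0. Counts over all genes moved the same way. On the normal diet the fallen from 1 to 3 days went from 42 to 215. At 3 days the risen went from 1303 to 2054 and the fallen from 637 to 1656. On the vitamin A diet the risen and fallen from 1 to 3 days went from 492 and 327 to 7 and 10. At 3 days on that diet they went from 834 and 322 to 402 and 97. DESeq2 gave 3 fallen from 1 to 3 days on the normal diet in place of 0 and 2 fallen at 1 day on the vitamin A diet in place of 1. It gave 7 risen and 2 fallen at 3 days on the vitamin A diet in place of 3 and 1. Over all genes the same DESeq2 counts were 160 in place of 42, 2084 in place of 1748, and 1109 and 601 in place of 834 and 322. With no filter on low counts, which tests more genes, there was 1 fallen at 1 day on the normal diet in place of 2 and 2 on the vitamin A diet in place of 1. At 3 days on the vitamin A diet there was 1 risen in place of 3. Over all genes these counts were 701 in place of 868, 1587 in place of 1748 and 758 in place of 834. For DESeq2 the cause was not tested.

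Leaving out 1 library at a time, the risen genes numbered 7 to 11 at 1 day on the normal diet and 12 to 18 on the vitamin A diet, and the fallen 0 to 2 and 1 to 1. From 1 to 3 days on the vitamin A diet 0 to 1 rose and 1 to 6 fell. At 3 days 1 to 2 rose on the normal diet and 0 to 8 on the vitamin A diet, where 1 to 2 fell. Over all genes at 1 day, 813 to 1096 rose on the normal diet and 1357 to 1989 on the vitamin A diet. With every library these were 1403 and 1979. From 1 to 3 days on the vitamin A diet 184 to 828 rose and 132 to 580 fell, against 492 and 327. At 3 days 791 to 1088 rose on the normal diet and 516 to 1092 on the vitamin A diet, against 1303 and 834.

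A fit with the replicate number as a block changed no count of risen or fallen genes, which stayed at 12 and 2, 16 and 1, 0 and 0, 1 and 4, 3 and 1, and 3 and 1. The numbers do not pair the samples: over 45 same-numbered pairs the correlation of deviations from group means was -0.1234 to 0.1966, with 3 over 0.1. Ern2, Trib3 and Chac1, at under 170 counts per library, have the widest intervals.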

Other observations

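At 3 days after cyclophosphamide the wider list of ATF4 and CHOP targets still held changed genes on both diets. Of the 30 tested, 7 (23.3%) rose and 2 (6.67%) fell on the normal diet, against 6.74% and 3.30% of all genes. On the vitamin A diet 5 (16.7%) rose and 2 (6.67%) fell, against 4.32% and 1.67% of all genes. Mthfd2, the mitochondrial folate enzyme, was at 2.11 on the normal diet (adjusted p = 0.000361) and 1.62 on the vitamin A diet (0.00396). Gdf15 rose by 4.24 and 3.94, and the death receptor gene Tnfrsf10b, which p53 also raises, by 2.14 and 1.95. Mthfd1l rose by 0.82 and 0.89. Stc2 fell by 2.16 and 2.46, and Shmt2, which feeds serine into mitochondrial folate, fell by 0.67 and 0.54. In 1 comparison, Bbc3, a pro-apoptotic p53 target, rose by 1.06 on the vitamin A diet (adjusted p = 0.0105). These genes were named after their values were seen.

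On the normal diet Creb3l1, whose product drives collagen secretion, fell by 0.76 at 1 day. At 3 days it rose by 0.89 against saline mice (adjusted p = 0.0197). The ER retention receptor gene Kdelr3 did not pass at 1 day on that diet and rose by 0.90 at 3 days (0.0151). At 3 days on the vitamin A diet 0 of the 30 folding and export genes and 0 of the 17 sensors and processing genes rose. Creb3l1 had 19.2 to 22.6 CPM in saline mice on the normal diet, 9.56 to 14 CPM at 1 day and 29.8 to 46.4 CPM at 3 days. The sum of 8 fibroblast markers had the same order in these groups, and its part in the change was not tested.

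The immediate early genes, which respond to handling as well as to injury, summed to 457 to 661 CPM in saline libraries and 585 to 694 CPM at 1 day on the normal diet. On the vitamin A diet they summed to 960 to 1236 CPM at 1 day. At 3 days the sums were 1220, 584 and 595.6 CPM on the normal diet and 585.8 to 692.1 CPM on the vitamin A diet. Replicate 1 on the normal diet thus also lay in the high range. The part of these differences in the stress genes was not tested.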
